A study of Gallus gallus with 6 samples.

Results

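The genes described here encode the actin and scaffold parts of the heart muscle fibre: ACTC1 (cardiac alpha-actin), TPM1 (tropomyosin 1), ACTN2 (alpha-actinin 2), LDB3 (LIM domain binding 3), MYBPC3 (cardiac myosin binding protein C), SMYD1 (a muscle lysine methyltransferase), DMD (dystrophin) and DES (desmin). They were chosen by symbol, and every transcript row with such a symbol was kept. Levels are in RPKM, reads per kilobase of transcript scaled to the reads of the library. Of the 8 genes, 7 had a row, with 1 RefSeq transcript each, among 6919 rows in all. DES had none, by symbol or by the accession that RefSeq gives for it in a later assembly, and was not analysed here. All 7 rows passed the filter on low values, a mean of at least 1 RPKM over the hearts, as did 4726 rows in all.

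Whole hearts of Dekalb white chick embryos (Gallus gallus) were compared at Hamburger-Hamilton stage (HH) 29, with 1 heart per library. In 3 OFT-banded embryos a nylon suture had been tied round the outflow tract (OFT) at HH21 and was left until harvest. In 3 sham embryos the suture had been passed through and taken out at once. RNA of all hearts was depleted of globin transcripts. In the deposited columns the OFT-banded hearts carry the numbers 6, 11 and 17 and the sham hearts 38, 42 and 48. The sample labels number the hearts otherwise, and columns were assigned to groups only. The comparison asks how a pressure load placed on the developing heart changes its gene expression.

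In the sarcomere, thin filaments of actin and tropomyosin slide past thick filaments of myosin. Alpha-actinin ties thin filaments of adjoining sarcomeres together at the Z-disc, where PDZ and LIM domain proteins such as LDB3 bind it. Myosin binding protein C sits on the thick filament, and dystrophin links the actin cytoskeleton beneath the membrane to the dystroglycan complex and so to the matrix. Mutations in most of these genes cause cardiomyopathy in humans.

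Read depth, estimated from whole steps between low values of microRNA rows, corresponded to between 30.1 and 41.2 M (1000000) reads in OFT-banded hearts and between 21.2 and 37.5 M in sham hearts. DMD, the lowest of the 7 genes, was thus covered by 271 to 526 reads per kilobase of transcript and ACTC1 by 257470 to 693657. The paper reports more uniquely mapped alignments than these depths. Whether the unit counted here was a read or a read pair was not tested. Heart 6 had the lowest level of all 6 hearts in 42.2% of tested transcripts, against at most 16.7% for any other heart. The summed markers of red cells stood apart by group. The 14 erythroid rows came to 6285 to 12374 RPKM in OFT-banded hearts and 16466 to 42014 RPKM in sham hearts. By value 10 of 11 tested rows were lower in OFT-banded hearts, CA2 being higher, and HBZ was listed at 0. Most of each sum came from the globins HBE and HBG1. HBG1 and HBZ were among the globins targeted by the depletion, while the paper does not name HBE among them. The part of the depletion in these sums was not tested. SLC4A1, a red cell gene other than a globin, overlapped between groups. With the globin rows left out and each heart rescaled, the log2 fold changes of the 7 genes moved by less than 0.05 each, to 0.25 in ACTC1 and -0.31 in DMD.

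The labelled tissue was borne out by its markers. Rows for 8 of 11 cardiomyocyte markers were present and all 8 were tested, among them MYL2, MYH15 and NKX2-5. They summed to 32367 to 36333 RPKM in OFT-banded hearts and 23562 to 30931 RPKM in sham hearts, without overlap. The sum includes NPPB, a natriuretic peptide of loaded heart muscle, and without it the groups overlap. NPPB was at 2038 to 7027 RPKM in OFT-banded and 1124 to 2053 RPKM in sham hearts. By value 5 of the 8 markers were higher and 3 lower. IRX4 was lower without overlap, 1 of 8 beside 11.0% of all tested transcripts. The part of the cardiomyocyte marker difference in the levels of the 7 genes was not tested. The 6 skeletal myogenic regulators, MYOD1, MYOG and MYF5 among them, summed to 1.08 to 1.60 RPKM in OFT-banded and 0.55 to 1.86 RPKM in sham hearts, with MYF5 listed at 0 throughout. In whole hearts, fewer cells of a type and less RNA per cell cannot be told apart.

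None of the 7 genes passed limma's test of OFT-banded against sham hearts, made on a scale of log2(RPKM + 1) with Benjamini-Hochberg adjustment over all 4726 tested transcripts. The count was 0 of 7 at an adjusted p under 0.05 and also 0 of 7 at an unadjusted p under 0.05. In 5 of the 15 alternatives 1 of the 7, either ACTC1 or DMD, had an unadjusted p under 0.05. The background was 0% of tested transcripts by the first measure, and 3.28% higher and 5.29% lower in OFT-banded hearts by the second. By value 3 of the 7 were higher and 4 lower in OFT-banded hearts, with a median log2 fold change of -0.01, beside -0.07 over all tested transcripts. Of all tested transcripts, 36.8% were higher by value. For 6 of the 7 genes the groups overlapped. DMD alone did not, being lower after banding, 1 of 7 beside a background of 11.0% of tested transcripts. In the other direction the count was 0 of 7, beside 5.23%.

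**Figure D1:**
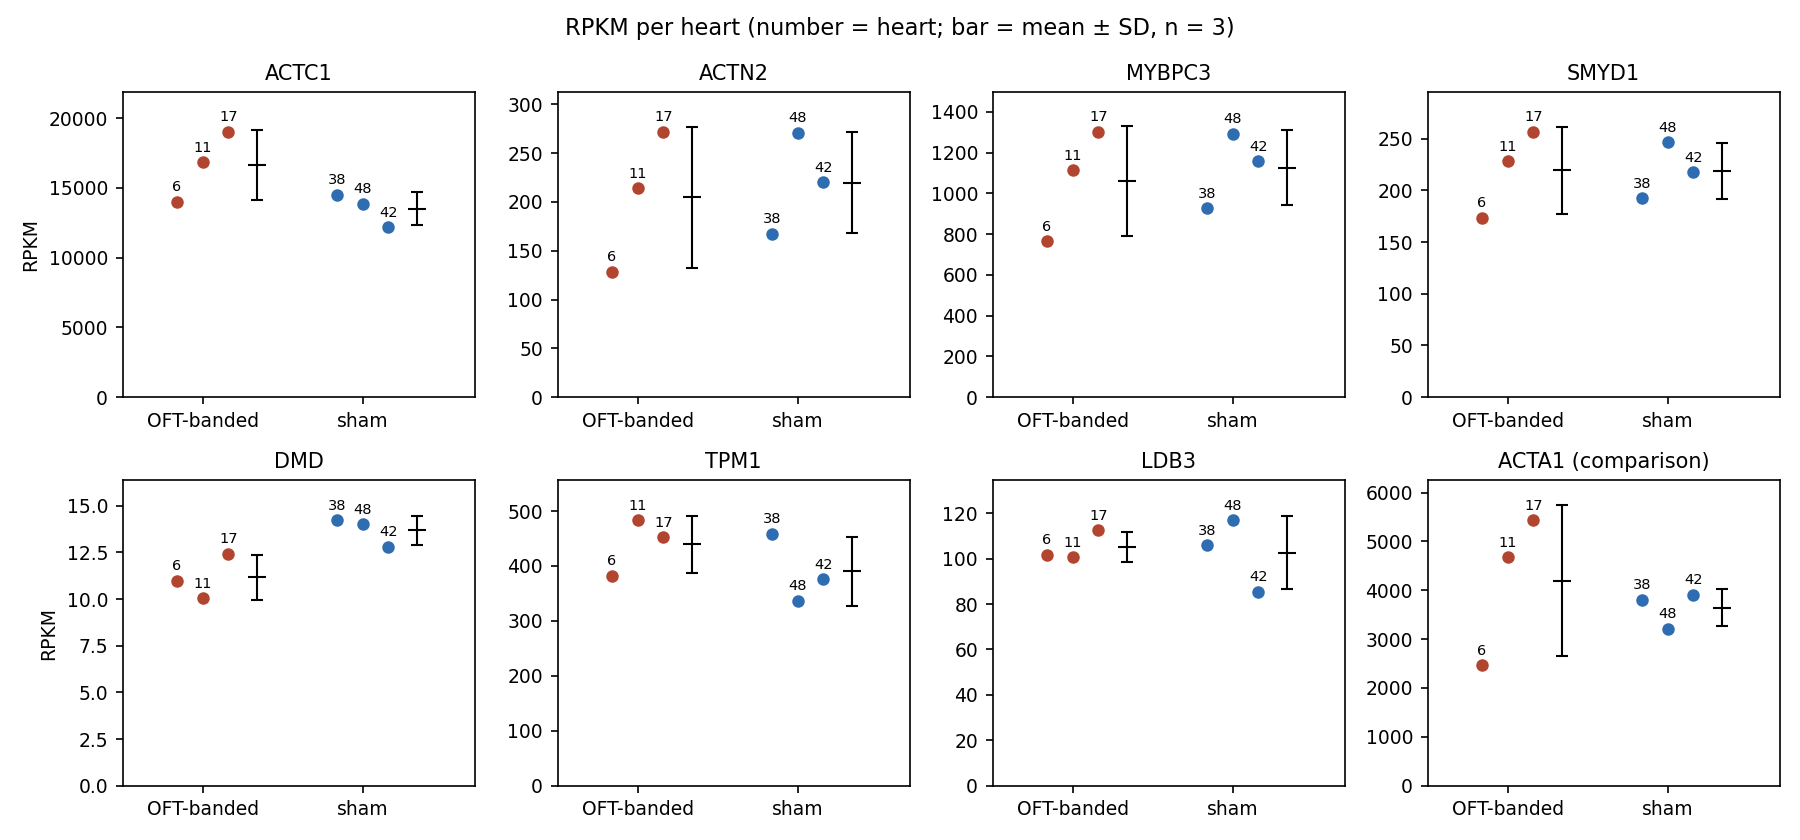
RPKM of each gene (vertical axes, from 0) in 3 OFT-banded and 3 sham hearts, 1 point per heart with its number, and the mean ± SD at the right of each group; ACTA1, skeletal alpha-actin, is shown for comparison. Heart 6 is lowest and heart 38 next to lowest in ACTN2, MYBPC3 and SMYD1, and only DMD keeps the groups apart, with OFT-banded hearts at 10.05 to 12.44 RPKM and sham hearts at 12.80 to 14.22 RPKM.

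ACTC1 encodes the actin that builds the thin filaments of heart muscle, and it was the third most abundant of all tested transcripts by mean RPKM. It was at 14007, 16836 and 19029 RPKM in OFT-banded hearts 6, 11 and 17, against 14507, 12174 and 13884 RPKM in sham hearts 38, 42 and 48. Hearts 11 and 17 stood above every sham heart, while heart 6 lay between sham hearts 48 and 38. The group means were 16624 ± 2518 RPKM in OFT-banded hearts and 13522 ± 1208 RPKM in sham hearts (means ± SD of 3 hearts). The log2 fold change was 0.29 (standard error 0.16, 95% interval -0.09 to 0.68, adjusted p = 0.560 from limma), so that these hearts allow from 0.936 to 1.60 times the sham level. Without heart 6 it was 0.41 (unadjusted p = 0.0217, adjusted p = 0.675 from limma), and without hearts 6 and 42 together 0.33 (0.0272 unadjusted, adjusted p = 0.720 from limma). It shrank to 0.19 without heart 17 (unadjusted p = 0.343 from limma) and to 0.22 without heart 42 (unadjusted p = 0.298 from limma). An exact two-sided permutation test of the means gave p = 0.2, where 3 hearts against 3 cannot go below 0.1.

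As a share of the summed RPKM of all rows, ACTC1 held 1.79%, 2.33% and 2.63% in OFT-banded hearts 6, 11 and 17 and 1.95%, 1.71% and 1.95% in sham hearts 38, 42 and 48. Among all transcripts of a heart it ranked first in heart 17, second in heart 11 below MYL2 (ventricular myosin light chain 2), and at rank 4 in heart 6 below MYL2, GAPDH and MYL3. In the sham hearts HBE, an embryonic globin, and MYL2 were above it, joined by GAPDH in heart 42. Of the summed RPKM of the 7 genes ACTC1 made up 88.7% to 90.0% in OFT-banded hearts and 85.5% to 88.6% in sham hearts.

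ACTA1, skeletal alpha-actin, is close to ACTC1 in sequence and is used in the embryonic heart too. It was at 2464, 4682 and 5434 RPKM in OFT-banded hearts 6, 11 and 17, against 3808, 3912 and 3216 RPKM in sham hearts 38, 42 and 48. Heart 6 was the lowest of all and hearts 11 and 17 the highest. The ratio of ACTC1 to ACTA1 was 4.26 ± 1.23 in OFT-banded and 3.75 ± 0.605 in sham hearts (means ± SD of 3 hearts, two-sided exact permutation test of the log2 ratio, p = 0.7). Only uniquely mapped reads were counted, so reads from stretches that the actin genes share would be missing from both rows. The split between the actins, and likewise between the tropomyosins and between the alpha-actinins, is uncertain.

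TPM1 encodes the tropomyosin that lies along the actin filament and, with the troponins, controls access of myosin. It was at 382.2, 483.2 and 452.6 RPKM in OFT-banded hearts 6, 11 and 17, against 459.2, 375.5 and 336.7 RPKM in sham hearts 38, 42 and 48. The groups overlapped, since sham heart 38 lay above OFT-banded hearts 6 and 17. The log2 fold change was 0.17 (standard error 0.14, 95% interval -0.15 to 0.50, adjusted p = 0.638 from limma). It was 0.30 without heart 38 and 0.07 without heart 48, and positive in all 15 alternatives run. The deposited values hold 1 row for TPM1, where RefSeq lists 21 transcripts in a later assembly, so no change between its isoforms could be seen. The ratio of TPM1 to ACTC1 was 0.0266 ± 0.00253 in OFT-banded hearts and 0.0289 ± 0.00406 in sham hearts (means ± SD of 3 hearts, two-sided exact permutation test of the log2 ratio, p = 0.5).

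**Figure D2:**
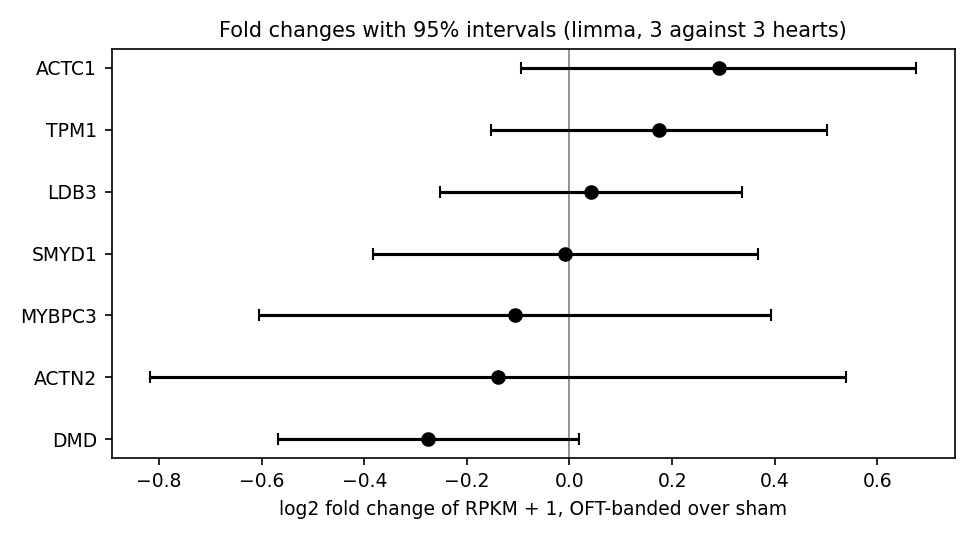
Log2 fold change of RPKM + 1, OFT-banded over sham (horizontal axis), for the 7 genes, with points for limma's estimates and bars for 95% intervals over 3 hearts against 3. Every interval spans 0, from the widest in ACTN2, -0.82 to 0.54, to DMD, whose interval of -0.57 to 0.02 lies almost wholly below it.

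ACTN2 is the main crosslinker of actin filaments at the Z-disc of striated muscle. It was at 128.3, 213.8 and 271.8 RPKM in OFT-banded hearts 6, 11 and 17, against 167.5, 220.2 and 270.9 RPKM in sham hearts 38, 42 and 48. Each group thus held 1 low heart and 1 high heart, and the highest heart of each group was at nearly the same level. The means were 205 ± 72.2 RPKM in OFT-banded and 219.5 ± 51.7 RPKM in sham hearts (means ± SD of 3 hearts), and the log2 fold change was -0.14 (standard error 0.29, 95% interval -0.82 to 0.54, adjusted p = 0.848 from limma). Without heart 6 it was 0.16 and without heart 48 0.02, so that no direction can be given.

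MYBPC3 encodes cardiac myosin binding protein C, a thick filament protein that tunes the rate of contraction. It was at 765.6, 1112.5 and 1301.6 RPKM in OFT-banded hearts 6, 11 and 17, against 927.2, 1156.3 and 1292.1 RPKM in sham hearts 38, 42 and 48. Here too heart 6 was lowest, heart 38 next, and hearts 17 and 48 highest. The log2 fold change was -0.11 (standard error 0.21, 95% interval -0.61 to 0.39, adjusted p = 0.841 from limma), and 0.11 without heart 6.

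SMYD1 encodes a lysine methyltransferase of striated muscle that is needed for heart development in mice and for myofibril assembly in zebrafish. It was at 173.6, 228.0 and 256.6 RPKM in OFT-banded hearts 6, 11 and 17, against 192.6, 217.8 and 246.3 RPKM in sham hearts 38, 42 and 48. The order of the hearts was that of ACTN2 and MYBPC3 at both ends. The group means were 219 ± 42.1 RPKM in OFT-banded and 219 ± 26.9 RPKM in sham hearts (means ± SD of 3 hearts), and the log2 fold change was -0.01 (standard error 0.16, 95% interval -0.38 to 0.37, adjusted p = 0.990 from limma). It was 0.15 without heart 6 and 0.06 after median-ratio scaling between hearts.

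ACTN2, MYBPC3 and SMYD1 thus shared an order of hearts at both ends, with a low and a high heart in each group. On log2(RPKM + 1) relative to the mean of the 6 hearts, heart 6 lay at -0.67 in ACTN2, -0.49 in MYBPC3 and -0.32 in SMYD1, and heart 38 at -0.29, -0.21 and -0.17. Heart 17 lay at 0.40, 0.28 and 0.24 in the same genes, and heart 48 at 0.40, 0.27 and 0.18. The pattern was widest in ACTN2 and narrowest in SMYD1. Of all tested transcripts 20.7%, or 976, were likewise lowest in heart 6 and next lowest in heart 38, so that this low end is not particular to these genes. The share that also had hearts 17 and 48 highest was not counted. The ratio of MYBPC3 to ACTN2 was 5.32 ± 0.598 in OFT-banded and 5.19 ± 0.386 in sham hearts (means ± SD of 3 hearts, two-sided exact permutation test of the log2 ratio, p = 0.9), with a coefficient of variation of 8.69% over the 6 hearts, against 26.8% for ACTN2 and 19.3% for MYBPC3 alone. The ratio of SMYD1 to ACTN2 was 1.12 ± 0.210 in OFT-banded and 1.02 ± 0.122 in sham hearts (means ± SD of 3 hearts, two-sided exact permutation test of the log2 ratio, p = 0.6).

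**Figure D3:**
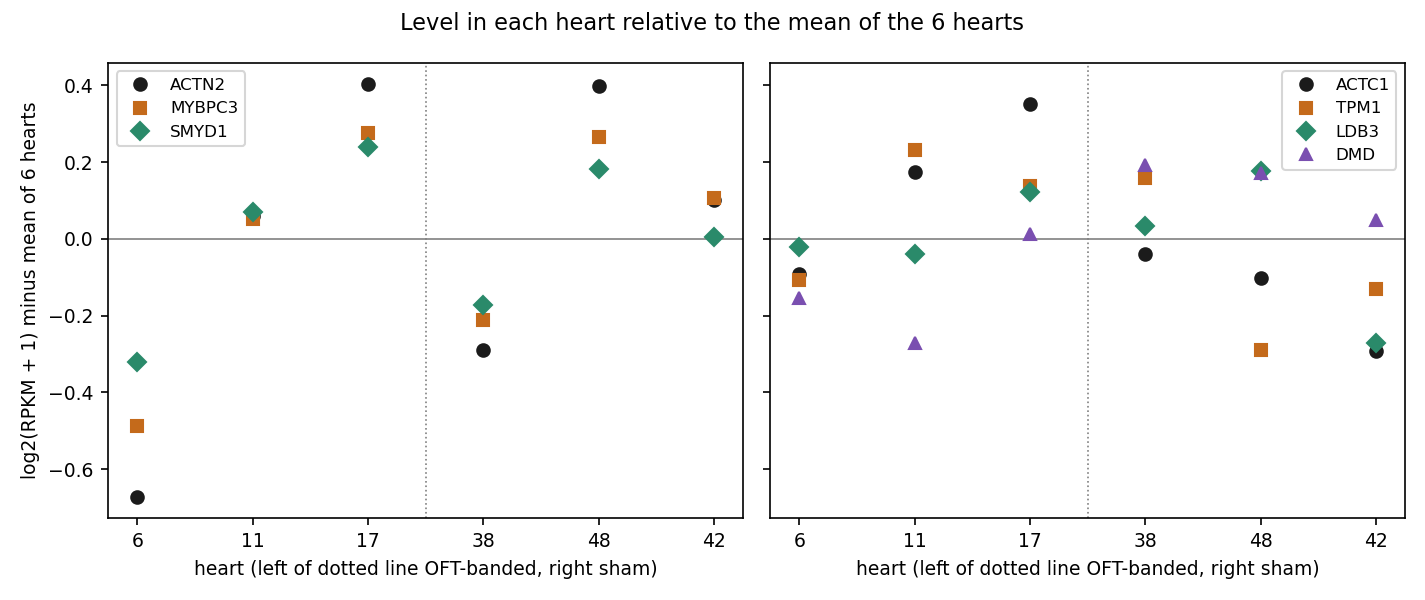
Log2(RPKM + 1) of each heart minus the mean of the 6 hearts (vertical axis) for ACTN2, MYBPC3 and SMYD1 (left) and ACTC1, TPM1, LDB3 and DMD (right), with OFT-banded hearts left of the dotted line and sham hearts right of it. The genes at the left share 1 order of hearts at both ends, lowest in heart 6 and high in hearts 17 and 48, while those at the right do not share one.

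LDB3 encodes a PDZ and LIM domain protein of the Z-disc, also called Cypher or ZASP, that binds alpha-actinin 2. It was at 101.8, 100.6 and 112.7 RPKM in OFT-banded hearts 6, 11 and 17, against 105.8, 85.41 and 116.9 RPKM in sham hearts 38, 42 and 48. All 3 OFT-banded hearts lay inside the range of the sham hearts, of which heart 42 was lowest. The log2 fold change was 0.04 (standard error 0.12, 95% interval -0.25 to 0.34, adjusted p = 0.896 from limma) and turned to -0.08 without heart 42 and to -0.01 without heart 17. Hearts 17 and 48 were the highest in LDB3 as in ACTN2. The lowest was heart 42 in LDB3 and heart 6 in ACTN2. The ratio of LDB3 to ACTN2 varied by 30.4% over the 6 hearts, beside 26.8% for ACTN2 and 10.6% for LDB3 alone. It averaged 0.559 ± 0.204 in OFT-banded and 0.484 ± 0.130 in sham hearts (means ± SD of 3 hearts, two-sided exact permutation test of the log2 ratio, p = 0.6).

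DMD encodes dystrophin, which joins actin beneath the membrane to the dystroglycan complex. It was at 10.98, 10.05 and 12.44 RPKM in OFT-banded hearts 6, 11 and 17, against 14.22, 12.80 and 14.02 RPKM in sham hearts 38, 42 and 48. No banded heart reached the lowest sham heart, although hearts 17 and 42 were close. The means were 11.2 ± 1.20 RPKM in OFT-banded and 13.7 ± 0.769 RPKM in sham hearts (means ± SD of 3 hearts), and the log2 fold change was -0.28 (standard error 0.12, 95% interval -0.57 to 0.02, adjusted p = 0.543 from limma, 0.0621 unadjusted). The exact two-sided permutation test gave p = 0.1, the smallest that 3 hearts against 3 allow. By unadjusted p, DMD had rank 521 of the 4726 tested transcripts. The log2 fold change was negative in all 15 alternatives, between -0.35 and -0.21, with an adjusted p between 0.434 and 0.985 from limma. Unadjusted, limma's p for DMD was 0.0448 with the globin rows left out, 0.0411 with no intensity trend in the moderation and 0.0480 without heart 17. Other settings moved it up, to 0.133 after median-ratio scaling, 0.151 without heart 48 and 0.186 without heart 11. Within each heart, the ratio of DMD to ACTN2 was 0.0594 ± 0.0226 in OFT-banded and 0.0649 ± 0.0176 in sham hearts (means ± SD of 3 hearts) and the groups overlapped (exact permutation test, two-sided, p = 0.6). DMD has 1 row here, where RefSeq lists 37 transcripts of the gene in a later assembly, so the full-length and short dystrophins could not be told apart.

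**Figure D4:**
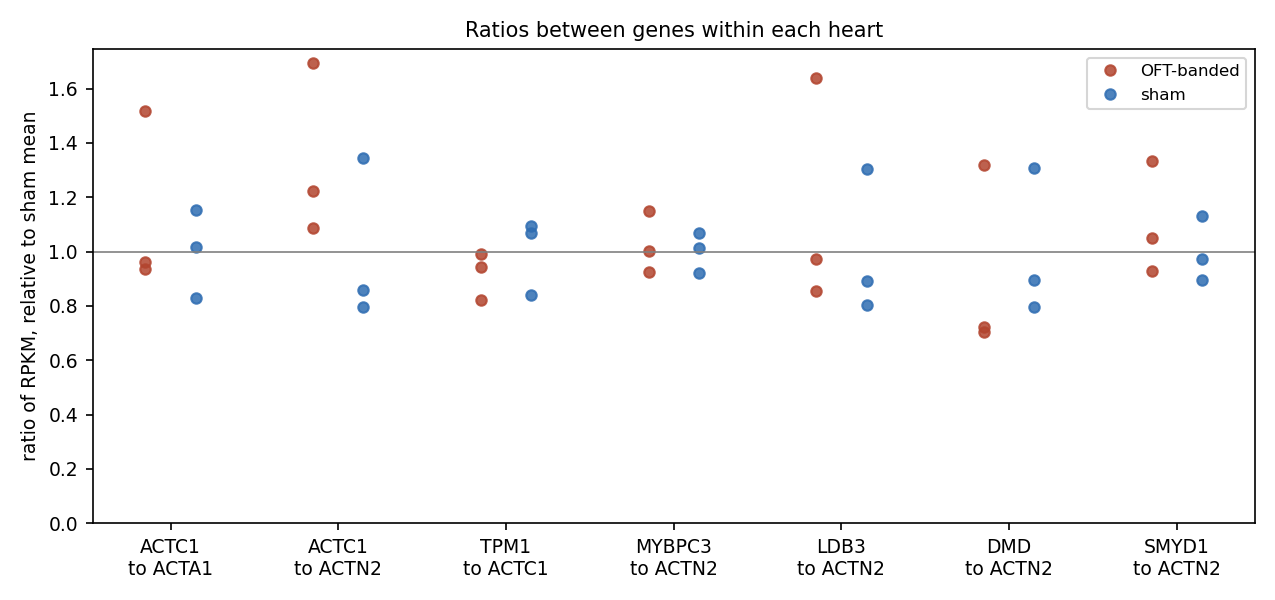
Ratio of RPKM between 2 genes of the same heart, relative to the mean ratio of the sham hearts (vertical axis, from 0), with 1 point per heart for OFT-banded (left of each pair) and sham. The groups overlap in all 7 ratios, and the hearts lie closest together in MYBPC3 to ACTN2, at 4.79 to 5.97 in OFT-banded and 4.77 to 5.53 in sham hearts before rescaling.

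Of the 7 ratios tested, none kept the groups apart, and the adjusted p of the exact permutation tests, over the 7 ratios, was between 0.817 and 0.9. The widest difference was in the ratio of ACTC1 to ACTN2, at 109.2, 78.7 and 70.0 in OFT-banded hearts 6, 11 and 17, against 86.6, 55.3 and 51.3 in sham hearts 38, 42 and 48. Heart 6, with the lowest ACTN2, stood highest. The log2 difference was 0.43 (exact permutation test, two-sided, p = 0.3).

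Levels per kilobase set ACTC1 first, MYBPC3 second and DMD last in every heart. By mean over the 6 hearts the order was ACTC1 at 15073 RPKM, MYBPC3 at 1093, TPM1 at 415, SMYD1 at 219, ACTN2 at 212, LDB3 at 104 and DMD at 12.4. SMYD1 and ACTN2 are neighbours in this order and do not differ beyond their spread: SMYD1 was above ACTN2 in hearts 6, 11 and 38 and below it in hearts 17, 42 and 48. The median of all tested transcripts was 28.2 RPKM, and DMD was below it, with 69.6% of tested transcripts more abundant.

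The coefficient of variation over the 6 hearts was 10.6% for LDB3, 13.3% for DMD, 14.0% for TPM1, 14.4% for SMYD1, 16.3% for ACTC1, 19.3% for MYBPC3 and 26.8% for ACTN2. The median over all tested transcripts was 13.6%, with 2 of the 7 genes below it and 5 above. For the 1001 tested transcripts with a mean of at least 100 RPKM it was 10.2%, below the value of each of the 7 genes, 6 of which were that abundant. Of all tested transcripts 80.8% varied less than ACTN2 and 34.8% less than LDB3. The value for LDB3 was 6.55% without heart 42, and that for ACTN2 was 19.1% without heart 6. Within groups ACTN2 varied by 35.3% in OFT-banded and 23.5% in sham hearts, and ACTC1 by 15.1% in OFT-banded and 8.94% in sham hearts.

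**Figure D5:**
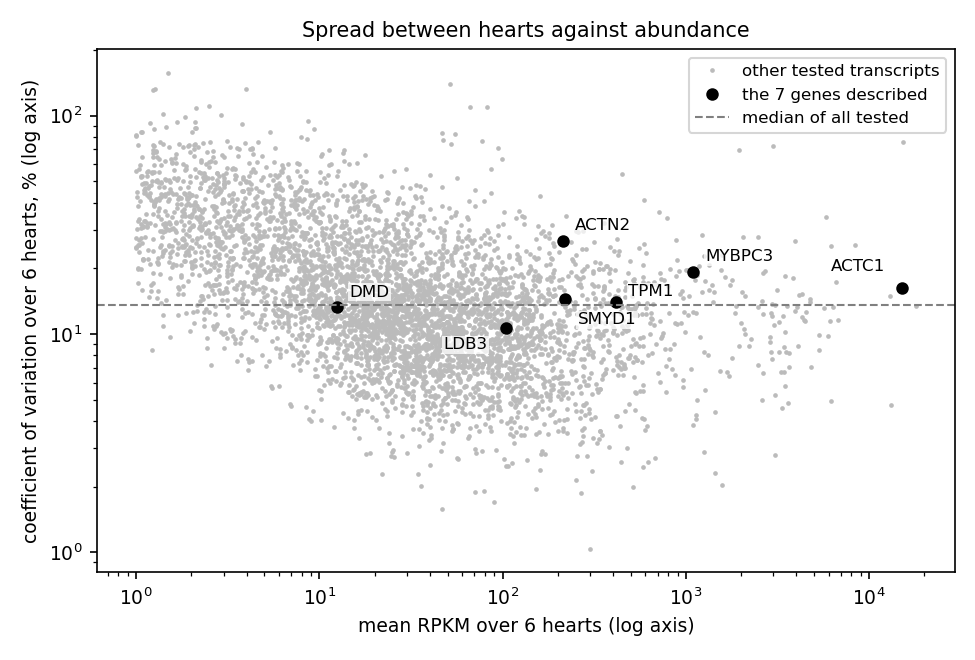
Coefficient of variation over the 6 hearts (vertical log axis, percent) against mean RPKM (horizontal log axis) for all 4726 tested transcripts (grey), with the 7 genes in black and the median of all tested transcripts, 13.6%, as a dashed line. ACTN2, at 26.8%, is the most variable of the 7 and LDB3, at 10.6%, the least.

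By the root mean square difference of log2(RPKM + 1) profiles, each centred over the 6 hearts, the nearest transcript of another gene to ACTN2 was LASP1, a LIM and SH3 domain protein that binds actin (0.0842). LASP1 was at 47.31, 69.76 and 92.36 RPKM in OFT-banded hearts 6, 11 and 17, against 61.34, 85.85 and 95.15 RPKM in sham hearts 38, 42 and 48. It too was lowest in heart 6, with heart 38 next. The nearest to the others were CYTH4 for ACTC1 (0.0414), CD200R1 for MYBPC3 (0.0577), ST6GAL1 for SMYD1 (0.0481), LXN for DMD (0.0491), C1GALT1C1 for TPM1 (0.0517) and AKAP9 for LDB3 (0.0574). CYTH4 and CD200R1 averaged only 1.41 and 1.24 RPKM, where the 1 added before the log narrows a profile, so their nearness depends on that scale. Among the 7 genes themselves MYBPC3 and SMYD1 were the closest pair (0.0903), then ACTN2 and MYBPC3 (0.111), and ACTN2 and TPM1 the farthest (0.438).

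Other genes of the same structures were read from gene lists. Of the thin filament list, 13 of 21 genes had a row and 12 were tested: 9 were higher and 3 lower by value in OFT-banded hearts, none with an adjusted p under 0.05 from limma, and the median log2 fold change was 0.12. TNNC2, fast skeletal troponin C, was at 935 ± 70.9 RPKM in OFT-banded and 495 ± 136 RPKM in sham hearts (means ± SD of 3 hearts). Its log2 fold change was 0.95 (adjusted p = 0.543 from limma, 0.00160 unadjusted). The paper, with another test (DESeq), called TNNC2 higher in OFT-banded hearts at this stage. It also found TNNC2 higher by qPCR of the same sequenced hearts. TNNC2 was the only gene of this list without overlap, 1 of 12 beside 5.23% of all tested transcripts higher in this way. TNNT2, cardiac troponin T, was at 7110.4 ± 637 RPKM in banded against 5232 ± 1745 RPKM in sham hearts and TNNI2, a fast troponin I, at 2.67 ± 1.01 RPKM in banded against 3.75 ± 0.327 RPKM in sham hearts. The tropomyosins TPM2 and TPM3 varied by 6.31% and 4.80% over the 6 hearts, against 14.0% for TPM1. Their log2 fold changes were 0.11 and 0.07.

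Of the thick filament and M-band list, 9 of 19 genes had a row and all 9 were tested, with 6 higher and 3 lower by value and no gene without overlap (median log2 fold change 0.15). MYL3, a myosin light chain, was at 14036 ± 2151 RPKM in OFT-banded and 11801 ± 968 RPKM in sham hearts, and TRIM55, a ubiquitin ligase of the M-band, at 596 ± 35.5 RPKM in banded against 504 ± 83.5 RPKM in sham hearts (means ± SD of 3 hearts). MYOM2, a myomesin that links thick filaments, was at 77.74, 139.2 and 82.40 RPKM in OFT-banded hearts 6, 11 and 17, against 47.07, 47.65 and 123.4 RPKM in sham hearts 38, 42 and 48. Sham heart 48 lay above 2 of the 3 OFT-banded hearts.

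Of the Z-disc list, 17 of 33 genes had a row and 17 rows were tested, with 8 higher and 9 lower by value and a median log2 fold change of -0.02. The groups did not overlap in 2 of these rows, CSRP3 and ANKRD1, both higher, beside 5.23% of all tested transcripts. CSRP3, muscle LIM protein, was at 1182, 1187 and 1636 RPKM in OFT-banded hearts 6, 11 and 17, against 960, 1011 and 1087 RPKM in sham hearts 38, 42 and 48. The groups did not overlap, and the log2 fold change was 0.37 (standard error 0.14, adjusted p = 0.543 from limma, 0.0332 unadjusted), or 0.22 without heart 17. ANKRD1, a stretch-responsive ankyrin repeat protein, was at 29.13, 27.42 and 197.97 RPKM in the same OFT-banded hearts, against 23.08, 11.65 and 19.91 RPKM in the sham hearts. Heart 17 stood far above the rest, and the log2 fold change of 1.58 (adjusted p = 0.543 from limma) was 0.66 without it. The level of CRYAB, a small heat shock protein, averaged 5.02 ± 0.632 RPKM in OFT-banded and 3.85 ± 0.851 RPKM in sham hearts (means ± SD of 3 hearts). Of the non-muscle alpha-actinins, ACTN1 had a log2 fold change of 0.17 and ACTN4 of -0.45, with coefficients of variation of 19.1% and 36.4% over the 6 hearts. CSRP1 was at -0.02, with a coefficient of variation of 3.73%.

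Of the dystrophin complex and costamere list, 12 of 29 genes had a row and all 12 were tested, with 4 higher and 8 lower by value (median log2 fold change -0.04). DAG1, dystroglycan, the receptor that dystrophin binds, was at 118.1, 105.9 and 109.4 RPKM in OFT-banded hearts 6, 11 and 17, against 70.38, 93.28 and 86.88 RPKM in sham hearts 38, 42 and 48. The groups did not overlap, with banded hearts higher, the opposite of DMD. Some other rows of this list lay near 0, with log2 fold changes of 0.05 in SGCB, -0.03 in SNTB1 and 0.08 in CAV3. Others lay further off, at -0.42 in TLN1 and -0.31 in VCL, both with overlap between groups. DAG1 was 1 of 12 higher without overlap, beside 5.23% of all tested transcripts. The log2 fold change of DAG1 was 0.42 (standard error 0.12, adjusted p = 0.543 from limma, 0.00904 unadjusted), and between 0.30 and 0.50 with each heart left out in turn. TLN1, talin, was at 54.4 ± 13.2 RPKM in OFT-banded and 72.8 ± 14.8 RPKM in sham hearts, and ZYX, zyxin, at 119.5 ± 15.1 RPKM in banded against 132 ± 15.1 RPKM in sham hearts (means ± SD of 3 hearts). ILK, integrin-linked kinase, varied by 2.83% over the 6 hearts.

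Of the intermediate filament and desmosome list, which stands nearest to DES, 9 of 16 genes had a row and all 9 were tested, with 2 higher and 7 lower by value (median log2 fold change -0.13). JUP, plakoglobin of the desmosome, was at 190.2 ± 14.3 RPKM in OFT-banded and 214 ± 1.43 RPKM in sham hearts (means ± SD of 3 hearts) and did not overlap. It was 1 of 9 in this, beside 11.0% of all tested transcripts lower without overlap. CDH2, N-cadherin, was at 353 ± 83.4 RPKM in banded against 458 ± 93.5 RPKM in sham hearts, and SYNM, synemin, a partner of desmin, at 10.6 ± 1.47 RPKM in banded against 12.3 ± 1.12 RPKM in sham hearts. VIM, vimentin, had a log2 fold change of 0.09. Of the list of cardiac transcription factors and sarcomere assembly, 16 of 20 genes had a row and were tested, with 4 higher and 12 lower by value (median -0.08). GATA6, a factor of heart specification, was at 63.7 ± 20.1 RPKM in OFT-banded and 82.2 ± 7.70 RPKM in sham hearts. IRX4, a ventricular homeobox factor, was at 355 ± 14.8 RPKM in OFT-banded and 455 ± 22.7 RPKM in sham hearts (means ± SD of 3 hearts) without overlap, and HSP90AA1, a chaperone of myosin folding, at 453 ± 96.8 RPKM in banded against 363 ± 26.0 RPKM in sham hearts. In this list IRX4 alone did not overlap, 1 of 16 beside the same 11.0%. The log2 fold change of IRX4 was -0.36 (standard error 0.08, adjusted p = 0.543 from limma, 0.00214 unadjusted). It lay between -0.40 and -0.33 with each heart left out in turn.

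The markers of other cells, read the same way, held 0 transcripts with an adjusted p under 0.05 from limma. HBE was at 7455 ± 2764 RPKM in OFT-banded and 23208 ± 12087 RPKM in sham hearts (means ± SD of 3 hearts), HBG1 at 1073 ± 409 RPKM in banded against 2816 ± 1451 RPKM in sham hearts, and SLC4A1, the anion exchanger of red cells, at 24.5 ± 14.9 RPKM in banded against 109 ± 88.5 RPKM in sham hearts. By log2 fold change, at -1.58 in HBE, -1.34 in HBG1 and -1.87 in SLC4A1, these red cell genes were the widest apart of the markers named here. Without heart 42 the values were -1.18, -0.95 and -1.22. With all hearts SLC4A1 overlapped between groups, while HBE and HBG1 were lower without overlap, 2 of 11 tested erythroid rows beside 11.0% of all tested transcripts. Of the 9 endothelial genes tested 3 were higher and 6 lower by value (summed RPKM 356 to 424 in OFT-banded and 339 to 471 in sham hearts), with LMO2, CDH5 and KDR at log2 fold changes of -0.36, -0.33 and -0.27. These were -0.23 in LMO2 without heart 42, -0.18 in CDH5 without heart 6 and -0.17 in KDR without heart 48. Of the 5 smooth muscle genes 3 were higher and 2 lower (780 to 1082 RPKM in OFT-banded and 698 to 1497 RPKM in sham hearts), with CALD1 at 0.48, TAGLN at 0.60 and MYLK at 0.88, or 0.43 without heart 17. CALD1 and MYLK were higher without overlap, 2 of 5 beside 5.23% of all tested transcripts. At an unadjusted p under 0.05 from limma 3 of 5 were higher, beside 3.28%. Of the 9 fibroblast and matrix genes 3 were higher and 6 lower (992 to 1501 RPKM in OFT-banded and 1169 to 1613 RPKM in sham hearts), with FN1 at -0.37, COL5A1 at -0.17 and LUM at 0.46. FN1 was lower without overlap, 1 of 9 beside 11.0% of all tested transcripts. Without heart 6, FN1 was at -0.22 and COL5A1 at -0.05, and without heart 38 LUM was at 0.05. Of the 4 epicardial genes 1 was higher and 3 lower, with TCF21 at 0.20, TBX18 at -0.63 and WT1 at -0.23. Without heart 6, TBX18 was at -0.24 and WT1 at 0.08, and without heart 48 TCF21 was at 0.12. Of the cardiomyocyte markers 5 were higher and 3 lower. At an unadjusted p under 0.05 from limma 2 of 8 were higher, beside 3.28% of all tested transcripts, and 1 of 8 lower, beside 5.29%. NPPB, a natriuretic peptide of loaded heart muscle, was at 2038, 3662 and 7027 RPKM in OFT-banded hearts 6, 11 and 17, against 2053, 1124 and 1916 RPKM in sham hearts 38, 42 and 48. Heart 17, also highest in ACTC1 and ANKRD1, was highest here, and heart 6 lay just under sham heart 38. PLN, phospholamban, was at 657 ± 72.6 RPKM in OFT-banded and 514 ± 90.9 RPKM in sham hearts. The log2 fold change was 1.19 in NPPB (adjusted p = 0.543 from limma, 0.0312 unadjusted), or 0.73 without heart 17. In PLN it was 0.36 (adjusted p = 0.543 from limma, 0.0371 unadjusted), or 0.27 without heart 17.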

How the data were processed

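RNA of 3 OFT-banded and 3 sham whole hearts was read from 1 table. The paper describes poly(A) selection and reports some degradation of the sequenced RNA, from freeze-thaws and globin depletion. The part of that degradation in the levels, that of DMD among them, was not tested. The authors trimmed paired reads with scythe and sickle, aligned them with TopHat to galGal4, kept unique alignments, counted with HTSeq and deposited RPKM values, 1 per RefSeq transcript and heart. The versions are not given in the sources used here. RPKM keeps differences in RNA makeup between hearts, since sums were not equalised. All 6 columns were used and grouped by their names.

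Transcripts with a mean of at least 1 RPKM were tested with limma 3.58.1 (R 4.3.3, intensity trend) on log2(RPKM + 1), a scale that understates changes of low genes. For permutation tests and ratios, Python 3.11.15 was used (numpy 2.4.6, pandas 2.3.3). P-values take the 3 hearts of a group as replicates. Transcript lengths were not used, so no count test was run, and no sequences are shown. The fit was also run on simulated data with independent noise for each transcript. That setting lacks differences that many transcripts of a heart share, so it cannot show how the test behaves on these hearts.

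The genes and lists were chosen with earlier results of these data known. Of 14 lists 12 had tested genes, and from each of these the 3 tested genes with the smallest p were named, and for each gene the 1 nearest profile. ACTN1, ACTN4, CSRP1, TPM2, TPM3, ILK, SGCB, SNTB1, CAV3, VCL and VIM were chosen after their values were seen. Lists were matched by the symbols in the table. Neural crest and glial rows did not exceed a sum of 0.39 RPKM.

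The settings varied were the filter (none, or a mean of at least 5 RPKM), the pseudocount (0.1), the scaling (TPM, median ratio, globin rows left out), the moderation (no trend, robust) and each heart left out, and, added after seeing the data, hearts 6 and 42 left out together.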

Additional observations from a re-analysis of the deposited data

How the results depend on the processing

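No paired analysis was possible because the column names carry numbers other than those of the labels, columns are not assigned to samples by their values, and no source states which banded and sham hearts belong together. In all 15 alternatives 0 of the 7 genes, and 0 tested transcripts, had an adjusted p under 0.05 from limma. The paper's DESeq test did call genes, TNNC2 among them, so the count of 0 does not show that no transcript changed. ACTC1, TPM1 and DMD kept their direction throughout, ACTC1 between 0.19 and 0.41 on the log2 scale. The others turned. With each heart left out in turn, the log2 fold change ranged from -0.38 to 0.16 in ACTN2, -0.27 to 0.11 in MYBPC3, -0.13 to 0.15 in SMYD1 and -0.0842 to 0.14 in LDB3. Without hearts 6 and 42 together, a choice made after seeing the data, these were 0.18, 0.14, 0.15 and -0.0626. After median-ratio scaling SMYD1 was at 0.0574. The count of transcripts with an unadjusted p under 0.05, 405 with all hearts, ranged from 195 without heart 42 to 649 without heart 38, and 56.9% of such transcripts were higher after median-ratio scaling, against 38.3% without it. Log2 differences of ratios, with each heart left out, ranged from -0.0650 to 0.28 for ACTC1 to ACTA1, -0.0524 to 0.11 for MYBPC3 to ACTN2, -0.10 to 0.39 for LDB3 to ACTN2, -0.45 to 0.0525 for DMD to ACTN2 and -0.0112 to 0.25 for SMYD1 to ACTN2. The cause was not tested. The coefficient of variation of LDB3 was 6.55% without heart 42, against 10.6% with all hearts. Neural crest and skeletal myogenic rows stayed below the filter and gave no test.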
